A study of Mus musculus with 38 samples.

Results

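Proteasome genes were followed in mouse livers that had kept or lost c-Met in hepatocytes, after a chemical carcinogen. Members were all probes whose single gene symbol begins with Psma to Psmg followed by a number, which gave 76 probes for 49 genes, out of 36607 probes and 17501 gene symbols on the array. Of the array's probes, 26926 carry 1 gene symbol, 203 carry several and 9478 are unnamed here. The 49 genes were divided into 15 core subunits, 17 regulatory subunits, 5 activators and regulators, 3 immunoproteasome subunits, 6 assembly chaperones, the thymus subunit Psmb11, and 2 genes that are only named after a subunit. These last are Psmc3ip, a meiotic recombination factor, and Psme3ip1, a binding partner of the PA28-gamma activator. A single probe stood for 26 genes, 19 genes had 2 probes and 4 had 3, and the first probe in the table gives a gene's value unless another is named.

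The proteasome is the main protease of the cytosol and nucleus and degrades proteins that carry ubiquitin chains. Its core is a barrel of stacked rings. The outer alpha rings gate the entry, and the inner beta rings hold the cutting sites. A regulatory particle caps the barrel, where its ubiquitin receptors bind the substrate, a deubiquitinase removes the chain and a ring of ATPases unfolds the protein and threads it in. Interferon gamma induces 3 alternative cutting subunits that form the immunoproteasome, which favours peptides suited to MHC class I. In liver, hepatocytes carry mostly the constitutive form and immune cells mostly the immune form. When proteasome capacity is short, the transcription factor Nfe2l1 raises subunit genes together in mammalian cells.

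Male mice were profiled in 4 groups of 5, and each had received N-nitrosodiethylamine (DEN), which causes liver cancer, once into the abdomen at the age of 14 days (10 micrograms per gram). The 3-month knockouts carried Alb-Cre +/- and Met Fl/Fl on a background labelled 129SV/C57BL6, and the 3-month controls carried Alb-Cre +/- alone on a background labelled B6129. The 5-month knockouts and 5-month controls had the same genotypes and backgrounds. The study counts 3 and 5 months from the dose, but the labelled ages are 12 weeks for the 3-month mice and 20 weeks for the 5-month mice, which is less, so how long after the dose the livers were taken is uncertain. Cre was driven by the albumin promoter, so deletion was aimed at hepatocytes, while RNA came from whole liver. Background strain differs with genotype in the labels, and the effects of strain and of Met cannot be told apart. Every liver was hybridised on 2-colour arrays against RNA pooled from 5 wild-type B6129 male livers aged 12 weeks. The genotype comparison asks how liver expression after a carcinogen depends on Met in hepatocytes.

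Each mouse has 1 value per probe, the log2 ratio of its liver to this pool. They compare a gene between livers and say nothing of the level of 1 gene against another. Group means are given with the SD of 5 mice and differences with their SE, from limma over the 20 mice, and p-values measure the spread between these mice. In whole liver, fewer cells of a type and less RNA per cell cannot be told apart. The 38 arrays gave both dye orientations for 18 mice. The single Met probe averaged above the controls in 3-month knockouts (log2 difference 0.42 ± 0.21, SE, adjusted p = 0.655) and near them at 5 months (-0.05 ± 0.21, adjusted p = 0.979). Its values were -0.57, -0.59, -0.53, -0.55 and 0.28 in 3-month knockouts, against -0.98, -0.66, -1.001, -0.62 and -0.80 in 3-month controls. They were -0.45, -0.75, -1.57, -0.53 and -0.62 in 5-month knockouts, against -1.20, -0.61, -0.81, -0.67 and -0.37 in 5-month controls. Whether the probe lies in the deleted stretch is not given in the sources used here, so it does not check the genotype labels. Across probes, the Cy5 array of 5-month control 4 ran against all 10 Cy5 arrays of 3-month livers (r = -0.61 to -0.48), while it matched its own mouse's turned Cy3 array (r = 0.70). Reading the ratio as Cy5 over Cy3 is the likely choice, though no label states it, and with arrays of 1 orientation running against each other the direction is not settled. Read the other way, every log2 value changes sign, those of Met above included, and higher and lower change places. The 41 proteasome probes called higher in 3-month knockouts would be 41 called lower. Met would then average below the controls in 3-month knockouts. Hepatocyte markers, 10 of 10 measured, had medians per mouse of 0.02 to 0.19 in 3-month knockouts, against 0.13 to 0.19 in 3-month controls. At 5 months knockouts had -0.11 to 0.10 and controls -0.59 to 0.04.

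Promoters of 7 members are shown because they belong to the immunoproteasome genes, whose interferon control sets them apart, and to the subunit genes among the 3 members that stood highest over the reference in each 3-month group. RefSeq's table for GRCm38.p6 held 41 of the 49 genes, each as 250 bases before the annotated start and 50 from it. Capitals mark every match, on either strand, to CCAAT (the CCAAT box), TGANNNNGC (the core of antioxidant-type elements), GAAANNGAAA (an interferon-stimulated type of element) or TTCNNNGAA (a gamma-activated type of element), where N is any base. The strand follows the coordinates, and each sequence runs 5′ to 3′ on it.
Psmb8 chr17:34197945-34198244 +: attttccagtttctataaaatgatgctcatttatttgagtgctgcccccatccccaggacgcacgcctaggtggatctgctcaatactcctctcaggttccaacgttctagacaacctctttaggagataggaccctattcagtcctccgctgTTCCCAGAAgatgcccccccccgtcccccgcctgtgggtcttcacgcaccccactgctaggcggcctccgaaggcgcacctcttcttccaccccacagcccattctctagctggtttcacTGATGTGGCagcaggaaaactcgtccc
Psmb9 chr17:34187281-34187580 -: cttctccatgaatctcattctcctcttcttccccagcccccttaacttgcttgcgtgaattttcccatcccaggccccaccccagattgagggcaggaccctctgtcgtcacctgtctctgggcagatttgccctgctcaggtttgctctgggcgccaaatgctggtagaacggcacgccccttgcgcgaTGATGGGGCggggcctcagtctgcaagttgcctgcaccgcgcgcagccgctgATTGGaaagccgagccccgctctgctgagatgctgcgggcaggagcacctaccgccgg
Psmb10 chr8:105938343-105938642 -: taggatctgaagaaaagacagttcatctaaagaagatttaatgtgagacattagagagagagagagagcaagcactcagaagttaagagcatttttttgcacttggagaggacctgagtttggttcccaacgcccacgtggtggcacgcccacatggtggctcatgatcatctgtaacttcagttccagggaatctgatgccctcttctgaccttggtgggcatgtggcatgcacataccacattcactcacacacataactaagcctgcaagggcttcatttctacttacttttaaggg
Psmd4 chr3:95042565-95042864 -: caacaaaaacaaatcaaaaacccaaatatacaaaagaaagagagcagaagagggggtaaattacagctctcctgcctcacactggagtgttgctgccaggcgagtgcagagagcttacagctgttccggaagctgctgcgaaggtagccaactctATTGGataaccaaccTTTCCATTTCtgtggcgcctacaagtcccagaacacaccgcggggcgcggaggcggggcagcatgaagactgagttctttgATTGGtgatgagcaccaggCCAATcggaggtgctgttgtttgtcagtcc
Psmc4 chr7:28050043-28050342 -: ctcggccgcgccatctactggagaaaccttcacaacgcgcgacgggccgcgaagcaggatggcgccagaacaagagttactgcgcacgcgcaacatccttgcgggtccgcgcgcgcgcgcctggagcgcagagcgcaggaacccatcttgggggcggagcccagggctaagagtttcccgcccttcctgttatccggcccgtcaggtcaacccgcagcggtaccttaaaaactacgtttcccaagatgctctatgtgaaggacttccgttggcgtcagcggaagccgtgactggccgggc
Psma1 chr7:114276067-114276366 -: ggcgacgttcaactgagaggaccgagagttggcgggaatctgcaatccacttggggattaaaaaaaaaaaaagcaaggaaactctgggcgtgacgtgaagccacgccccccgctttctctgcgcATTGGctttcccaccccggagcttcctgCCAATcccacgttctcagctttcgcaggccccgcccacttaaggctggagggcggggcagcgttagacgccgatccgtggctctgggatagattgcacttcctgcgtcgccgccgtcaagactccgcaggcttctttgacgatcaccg
Psmd14 chr2:61711444-61711743 +: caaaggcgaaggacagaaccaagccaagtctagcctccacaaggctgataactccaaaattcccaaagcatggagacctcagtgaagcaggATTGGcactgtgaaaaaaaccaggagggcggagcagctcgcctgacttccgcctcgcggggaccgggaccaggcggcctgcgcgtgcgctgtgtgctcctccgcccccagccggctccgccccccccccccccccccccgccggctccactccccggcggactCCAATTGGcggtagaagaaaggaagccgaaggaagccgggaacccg
The window of Psmb8 held a match to TTCNNNGAA whose first printed base was at position -97 and a match to TGANNNNGC at position 24, counted from 1 at the annotated start. The window of Psmb9 held TGANNNNGC at position -60 and CCAAT, read on the opposite strand, at position -8. The start of Psmb9 lies 226 bases from that of Tap1, a subunit of the peptide transporter of class I loading, and the genes run away from each other, and their windows share 275 bases. The windows of Psmb10 and Psmc4 held no match. The window of Psmd4 held 3 matches to CCAAT and 1 to GAAANNGAAA, Psma1 held 2 to CCAAT, and Psmd14 held 3, of which 2 overlap in the letters CCAATTGG.

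Among the 41 member promoters, 15 (36.6%) held CCAAT, against 37.9% of 27025 mouse promoters. TGANNNNGC was in 22 (53.7%), against 41.4%, GAAANNGAAA in 4 (9.76%), against 3.49%, and TTCNNNGAA in 3 (7.32%), against 8.47%. In 3-month knockouts the median log2 ratio was 0.15 over members with TGANNNNGC and 0.53 over those without, and in 3-month controls it was 0.34 and 0.50. For CCAAT the medians with and without it were 0.45 and 0.29 in 3-month knockouts and 0.44 and 0.38 in 3-month controls. A match is a description of letters in a window and not evidence of a bound factor.

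At 3 months most core and regulatory genes lay above the normal liver reference in both genotypes, and at 5 months fewer did. Of 76 proteasome probes, 41 were higher and 2 lower in 3-month knockouts, where 10.6% of all probes were called higher and 17.6% lower (limma, Benjamini-Hochberg adjusted p under 0.05 over all probes). In 3-month controls 47 were higher and 2 lower, against 12.3% and 17.6% of all probes. In 5-month knockouts 19 were higher and 5 lower, against 17.1% and 12.4%. In 5-month controls 6 were higher and 10 lower, against 14.7% and 14.5%. The shares of proteasome probes called higher were thus 53.9% and 61.8% in knockouts and controls at 3 months, and 25.0% and 7.89% at 5 months. The reference is a single pool that all 4 comparisons share, so these tests leave out the spread between normal livers, and the pool was of 12-week livers while the 5-month groups were labelled 20 weeks old.

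By class, the regulatory genes stood highest at 3 months in both genotypes and in 5-month knockouts, but in 5-month controls the chaperones averaged the same 0.05. The regulatory median per mouse averaged 0.56 ± 0.12 in 3-month knockouts and 0.56 ± 0.15 in 3-month controls, then at 5 months 0.27 ± 0.07 in knockouts and 0.05 ± 0.21 in controls (SD, n = 5 each). The core genes averaged 0.29 ± 0.13 and 0.42 ± 0.22 in knockouts and controls at 3 months and 0.12 ± 0.12 and -0.14 ± 0.23 at 5 months. For the immunoproteasome the averages were 0.16 ± 0.22 and 0.39 ± 0.37 at 3 months and 0.14 ± 0.16 and -0.04 ± 0.24 at 5 months, again knockouts before controls. The median of all probes in a mouse was -0.16 to 0.02 in 3-month knockouts, against -0.13 to 0.01 in 3-month controls. At 5 months it was -0.04 to 0.20 in knockouts and 0.03 to 0.16 in controls. The ends of this knockout range are knockouts 2 and 3, which have 1 array each, so their medians depend on the estimated dye effect. All 10 mice of 3 months had regulatory medians between 0.45 and 0.80, above the highest 5-month mouse, at 0.38. On the arrays with the liver in Cy3 alone, turned to liver over reference, the ages overlapped. There the regulatory median was 0.19 for 3-month control 2 and 0.20 for 3-month knockout 5, against 0.34 for 5-month knockout 4. The mAdb experiment IDs in the titles fall into separate runs of numbers for the 2 ages. No label says what a run stands for, age and ID run cannot be told apart, and no test of age was made. Regulatory probes were called higher in 20 of 27 for 3-month knockouts and 22 for 3-month controls, and core probes in 13 and 16 of 21. Of 6 immunoproteasome probes 0 were called higher in 3-month knockouts and 2 in 3-month controls. Of all probes, 10.6% were called higher in 3-month knockouts and 12.3% in 3-month controls.

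**Figure D1:**
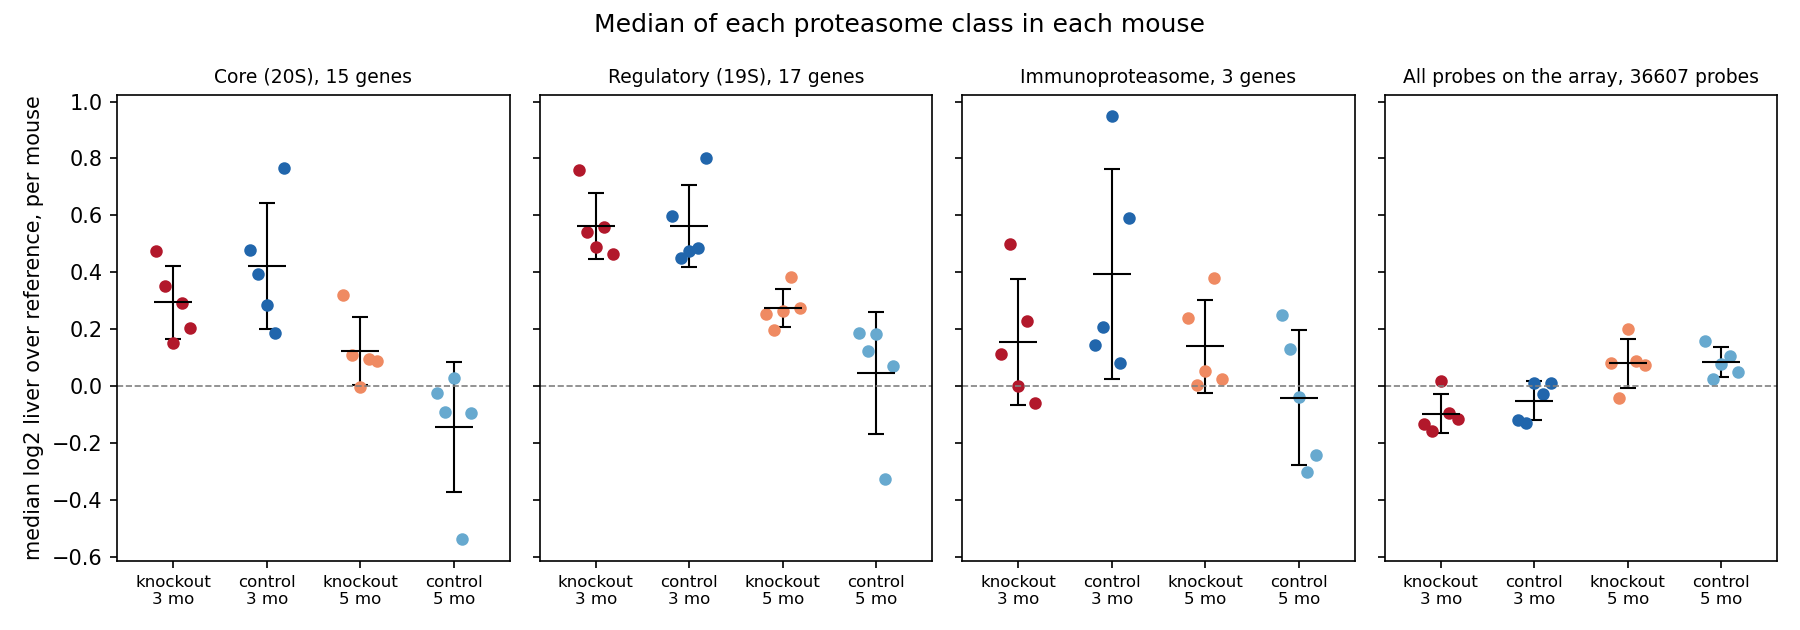
Each point is 1 mouse and gives the median log2 ratio of liver over reference across the genes of a class (y axis), for 15 core, 17 regulatory and 3 immunoproteasome genes and for all 36607 probes. Bars give the mean and SD of 5 mice. Regulatory medians of 3-month mice lie between 0.45 and 0.80, those of 5-month mice at or below 0.38, and 5-month control 4 is the low point at -0.33. On the arrays with the liver in Cy3 alone, which are not drawn here, the ages overlap.

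The 3-month level over the reference depends on how the dyes are treated. With the liver in Cy5, the median of the proteasome genes lay between 0.37 and 0.62 on the 5 arrays of 3-month knockouts and between 0.36 and 0.85 on those of 3-month controls. With the liver in Cy3, after turning to liver over reference, it lay between 0.13 and 0.43 in 3-month knockouts and between 0.11 and 0.44 in 3-month controls. All 20 of these medians were above 0. The median of all probes, however, was between -0.65 and -0.34 on the liver-in-Cy5 arrays of 3 months and between 0.17 and 0.39 on the liver-in-Cy3 arrays. Relative to its own array's median, the proteasome median was 0.70 to 1.29 higher on liver-in-Cy5 arrays, while on liver-in-Cy3 arrays it lay between -0.17 and 0.08. Over all probes the group means of both orientations correlated at r = -0.64 in 3-month knockouts and -0.62 in 3-month controls, although both are values of the same mice over the same reference. If the liver-in-Cy3 arrays of 3 months had been recorded the other way round, their proteasome medians would lie below 0. Over the 76 proteasome probes these correlations were 0.28 and 0.14. At 5 months they were 0.01 over all probes and 0.49 over the proteasome probes in knockouts, and 0.60 and 0.80 in controls. Centred on its own median, the liver-in-Cy3 array set called 6 of 76 proteasome probes higher in 3-month knockouts and 11 in 3-month controls, while the liver-in-Cy5 set called 62 and 64. Of all probes, the centred liver-in-Cy3 set called 24.3% higher in 3-month knockouts and 29.2% in 3-month controls, and the centred liver-in-Cy5 set 31.1% and 29.1%.

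**Figure D2:**
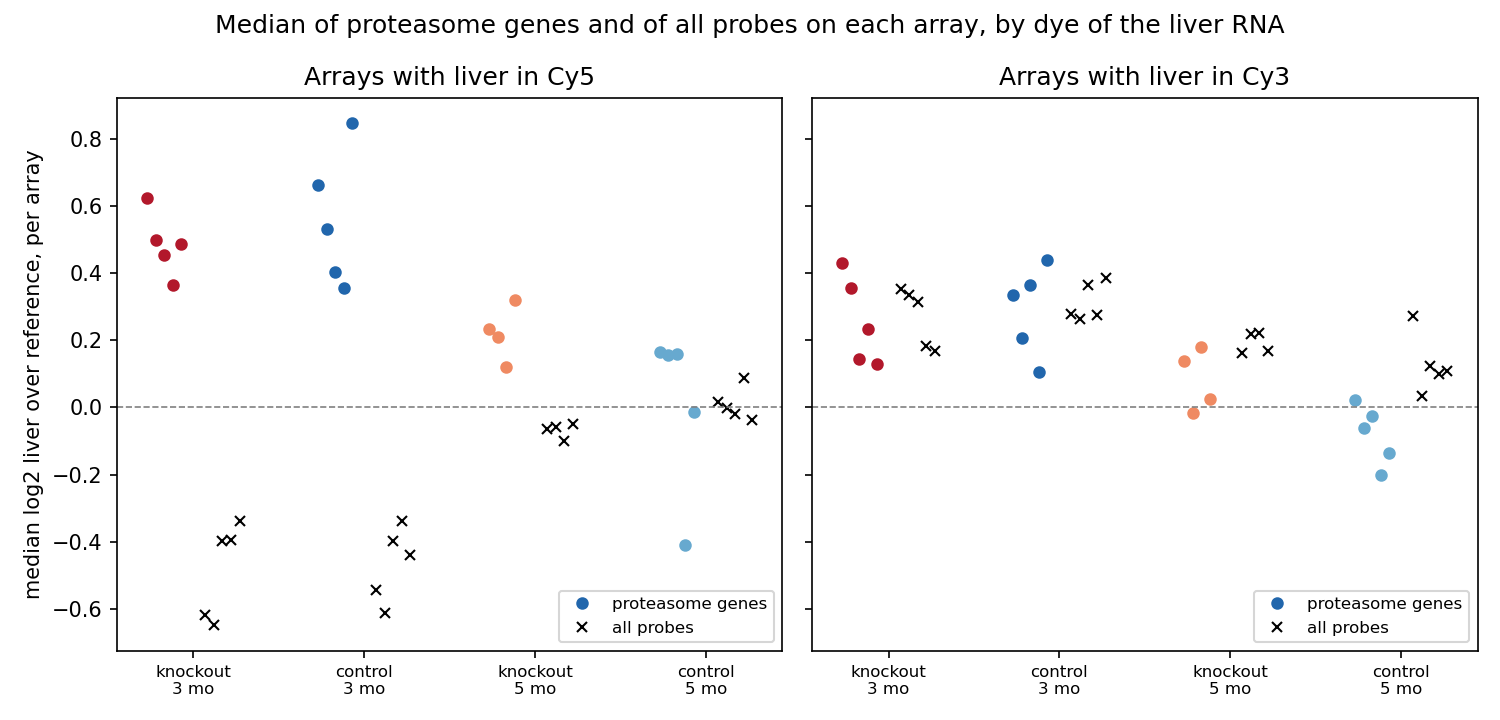
Each coloured point is the median log2 ratio of the proteasome genes on 1 array and each cross the median of all probes on that array, by group, with liver in Cy5 on the left and liver in Cy3 on the right, after turning to liver over reference. At 3 months the proteasome medians are above 0 in both panels, while the medians of all probes lie below 0 with liver in Cy5 and above 0 with liver in Cy3.

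Psma1, an alpha subunit, gave the highest core value at 3 months in both genotypes. It was at 0.88, 0.76, 0.45, 0.65 and 0.43 in 3-month knockouts, against the reference at 0 (adjusted p = 0.000445). In 3-month controls it was at 0.67, 0.84, 0.81, 0.49 and 1.36 (adjusted p = 4.01e-05). Every 3-month mouse of either genotype was above 0. At 5 months its values were 0.36, 0.42, 0.34, 0.69 and 0.37 in knockouts, all above the -0.01, -0.09, 0.17, -0.49 and -0.19 of controls. The second Psma1 probe, which ran with the first over the 20 mice (r = 0.94), averaged 0.34 ± 0.22 in 3-month knockouts and 0.53 ± 0.29 in 3-month controls, and -0.04 ± 0.15 and -0.42 ± 0.22 at 5 months.

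Psma3, another alpha subunit, was among the highest members at 5 months, with 0.56 ± 0.20 in knockouts (adjusted p = 0.00109) and 0.69 ± 0.09 in controls (adjusted p = 0.000181). Its second probe gave 0.53 and 0.63, but the third gave 0.35 and -0.09, so the 5-month level of this gene depends on the probe. Psma5, an alpha subunit as well, lay among the lowest members, at -0.58 ± 0.14 in 5-month knockouts (adjusted p = 0.00422) and -0.64 ± 0.27 in 5-month controls (adjusted p = 0.00211), and at -0.27 ± 0.44 and -0.20 ± 0.28 at 3 months, where it was not called. Psma8, the testis form of an alpha subunit, averaged -0.16, 0.06, -0.13 and -0.17 in 3-month knockouts, 3-month controls, 5-month knockouts and 5-month controls, and was called in none of the 4 groups.

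In the regulatory particle, Psmd4, a ubiquitin receptor, had the highest value of all members in 3-month knockouts. Its values were 0.89, 0.74, 0.71, 0.79 and 0.74 there (adjusted p = 1.72e-05) and 0.70, 0.45, 0.31, 0.49 and 1.11 in 3-month controls (adjusted p = 0.000110). All 10 mice were above 0, the knockouts within a narrow band and the controls spread on both sides of it. Its second probe read the other way, -0.37 and -0.44 in the same groups and called lower in both, so the level of Psmd4 is uncertain. Psmc4, an ATPase of the unfolding ring, averaged 0.69 ± 0.17 in 3-month knockouts (adjusted p = 4.85e-05) and 0.82 ± 0.22 in 3-month controls (adjusted p = 1.02e-05). At 5 months it averaged 0.45 ± 0.08 in knockouts (adjusted p = 0.00198) and 0.19 ± 0.22 in controls (adjusted p = 0.122). Its second probe moved with the first (r = 0.90) but lay lower, at 0.20, 0.36, -0.23 and -0.37 in the same order of groups. Psmd14, the deubiquitinase of the lid, was at 0.93, 0.72, 0.57, 0.49 and 0.41 in 3-month knockouts (adjusted p = 0.000454) and at 0.84, 0.61, 0.93, 0.53 and 1.25 in 3-month controls (adjusted p = 3.72e-05). Every one of these values lay above 0.

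Fewer genes lay below the reference than above it in 3 of the groups, with 10 of 49 below 0 in 3-month knockouts, 9 in 3-month controls and 12 in 5-month knockouts, but 28 were below 0 in 5-month controls. Psmd10, a chaperone of base assembly known as gankyrin and studied as an oncoprotein in liver cancer, averaged -0.87 ± 0.39 in 5-month knockouts (adjusted p = 0.000159) and -0.85 ± 0.15 in 5-month controls (adjusted p = 0.000170). At 3 months the same probe averaged -0.25 ± 0.35 in knockouts and -0.34 ± 0.12 in controls. Its 2 further probes averaged 0.65 and 0.14 in 5-month knockouts and 0.58 and 0.05 in 5-month controls, and neither was called, so no direction can be given for the gene. A single value of the second probe, -4.13 in 3-month control 1, lay far from all others. Psme2, the beta subunit of the interferon-induced PA28 activator, averaged -0.34 ± 0.18 in 5-month knockouts (adjusted p = 0.0245) and -0.52 ± 0.30 in 5-month controls (adjusted p = 0.00196). Its partner Psme1, the alpha subunit, was above the reference at 3 months, with 0.38 ± 0.16 in knockouts (adjusted p = 0.00265) and 0.57 ± 0.14 in controls (adjusted p = 9.00e-05). Psme4, the PA200 activator, averaged -0.60 ± 0.19 in 3-month controls (adjusted p = 0.0181), where its second probe gave 0.17. Psmf1, the regulator PI31, disagreed between probes as well, with -0.39 and -0.51 by the first probe and 0.50 and 0.48 by the second in 3-month knockouts and controls (r = -0.62 over 20 mice). Psmb11, a subunit of cortical thymus, was called lower in 3-month knockouts (-0.29 ± 0.09, adjusted p = 0.0251) and 5-month controls (-0.41 ± 0.28, adjusted p = 0.00387).

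Among the chaperones, Psmg2, which helps assemble the alpha ring, was above the reference in all 4 groups. It averaged 0.48 ± 0.14 in 3-month knockouts, 0.70 ± 0.23 in 3-month controls, 0.36 ± 0.22 in 5-month knockouts and 0.32 ± 0.19 in 5-month controls, with adjusted p from 5.16e-05 to 0.0202. Psmc3ip, which is no subunit, averaged 0.67 ± 0.31 in 3-month knockouts (adjusted p = 0.00795) and 0.71 ± 0.49 in 5-month knockouts (adjusted p = 0.00646), but -0.23 ± 0.53 and 0.18 ± 0.20 in the controls of the same ages.

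**Figure D3:**
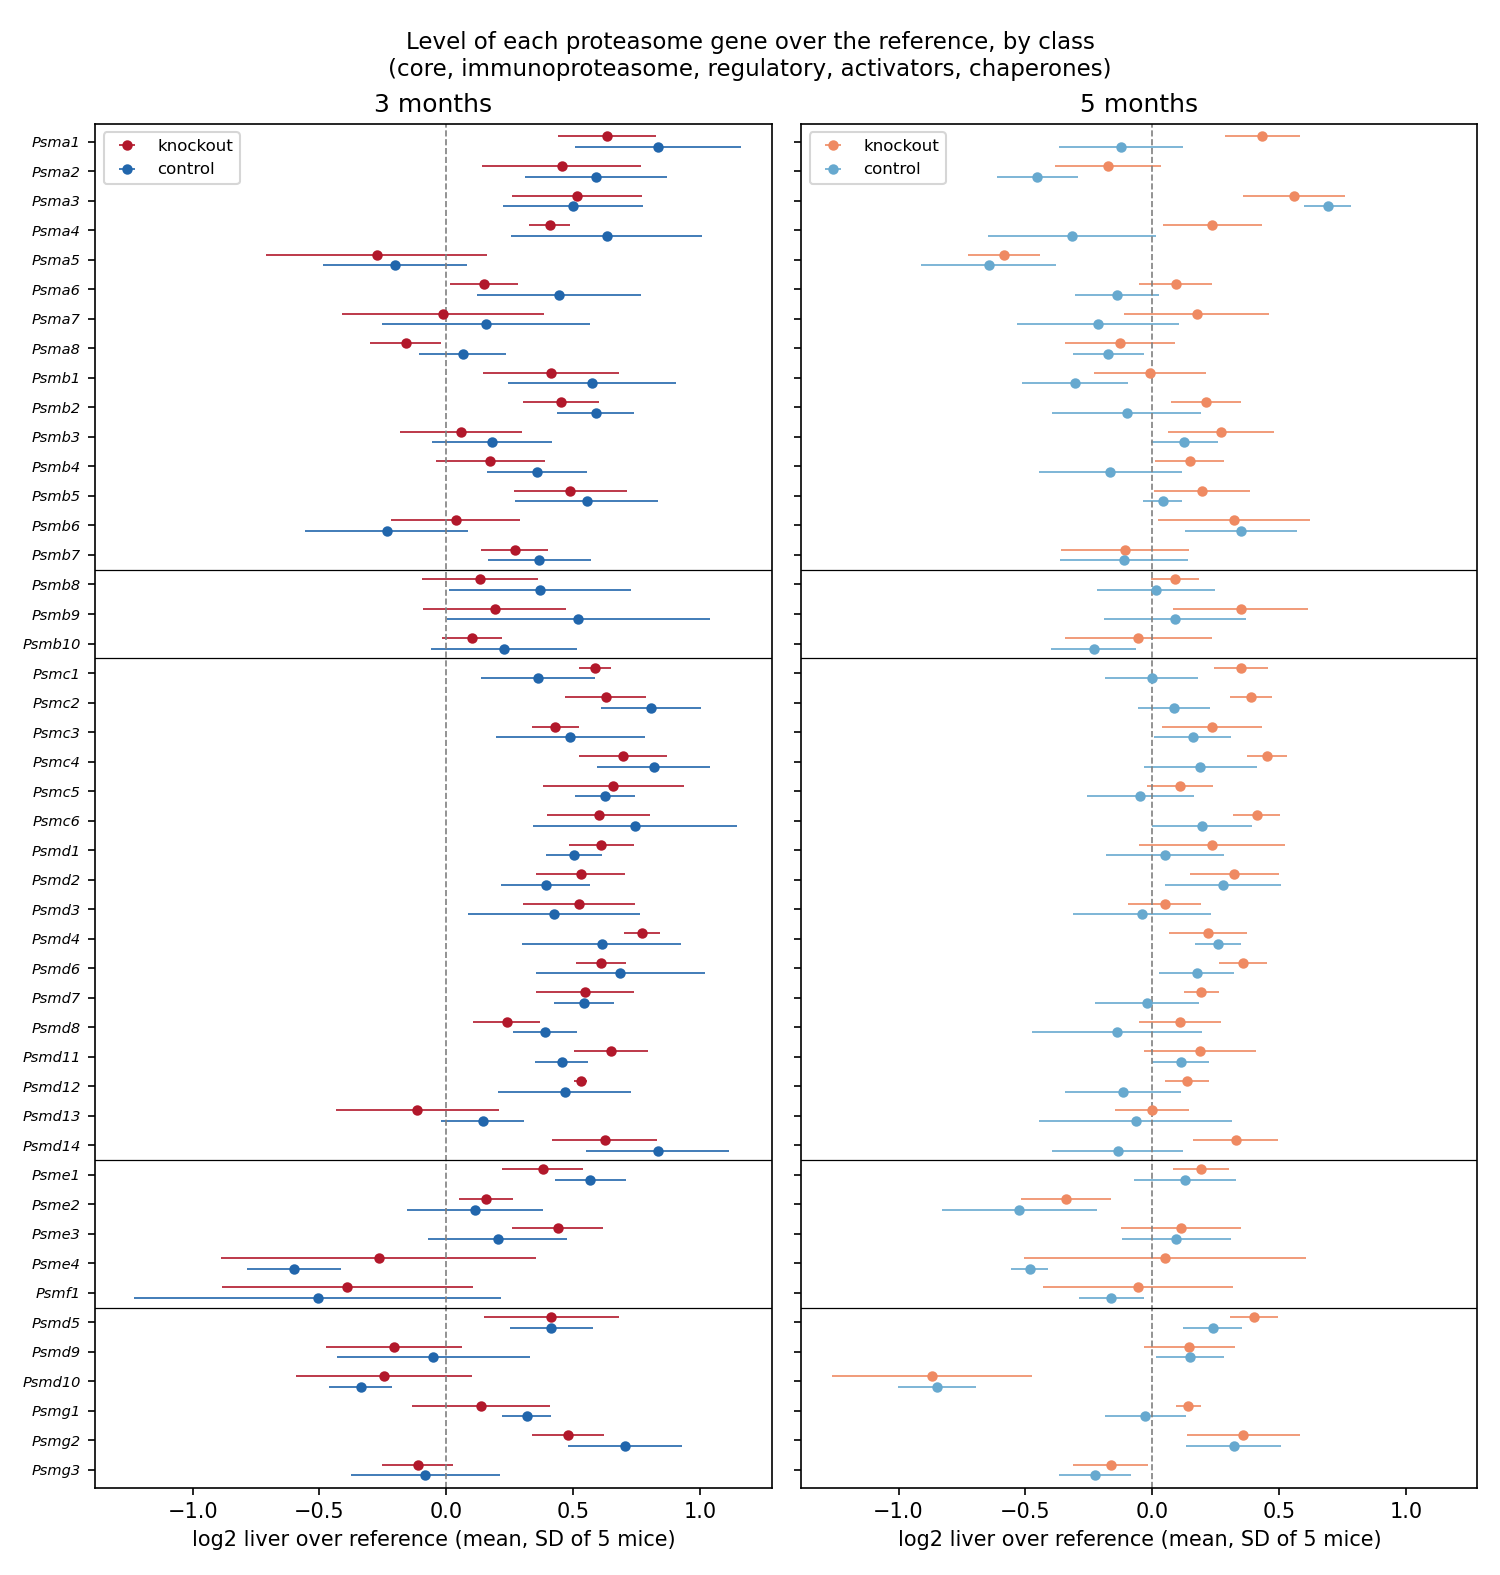
Mean log2 ratio of liver over reference (x axis) with the SD of 5 mice for the first probe of 46 genes, at 3 months on the left and 5 months on the right, knockouts drawn above controls, with lines between the classes named in the title. The regulatory genes lie right of 0 at 3 months except Psmd13 in knockouts, and gather nearer to 0 at 5 months.

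The 3 constitutive cutting subunits did not behave alike. Psmb5, which cuts after hydrophobic residues, was at 0.61, 0.80, 0.23, 0.37 and 0.44 in 3-month knockouts (adjusted p = 0.00153 against the reference). In 3-month controls it was at 0.62, 0.57, 0.43, 0.19 and 0.96 (adjusted p = 0.000478). All 10 mice were above 0. At 5 months Psmb5 was at 0.48, -0.03, 0.24, 0.10 and 0.20 in knockouts and at 0.13, 0.11, 0.03, -0.03 and -0.03 in controls, with overlapping groups and no call. Psmb7, which cuts after basic residues, was at 0.40, 0.35, 0.15, 0.34 and 0.11 in 3-month knockouts (adjusted p = 0.0579). Its values in 3-month controls were 0.27, 0.21, 0.25, 0.40 and 0.71 (adjusted p = 0.0116). At 5 months they were 0.03, -0.27, -0.41, 0.23 and -0.13 in knockouts and -0.08, 0.07, 0.08, -0.54 and -0.09 in controls, on both sides of 0 in each group. The second Psmb7 probe averaged 0.20 ± 0.10 in 5-month knockouts, all above 0, and 0.08 ± 0.15 in 5-month controls. The 5-month level of Psmb7 therefore depends on the probe.

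Psmb6, which cuts after acidic residues, ran in the other order of ages. Its values were -0.19, -0.29, 0.24, 0.22 and 0.20 in 3-month knockouts and -0.06, -0.56, -0.58, -0.12 and 0.15 in 3-month controls. At 5 months they were 0.53, 0.64, 0.21, -0.13 and 0.36 in knockouts (adjusted p = 0.0586) and 0.19, 0.15, 0.23, 0.56 and 0.62 in controls (adjusted p = 0.0426). The 5-month controls were all above 0 and the 3-month controls below 0 in 4 of 5 mice.

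The immunoproteasome subunits spread widely between the control mice of 3 months. Psmb8, which takes the place of Psmb5, was at 0.11, 0.50, -0.06, 0.16 and -0.06 in 3-month knockouts (adjusted p = 0.409) and at 0.16, 0.29, 0.95, 0.02 and 0.44 in 3-month controls (adjusted p = 0.0196). Psmb9, which takes the place of Psmb6, was at -0.02, 0.61, 0.24, 0.23 and -0.11 in 3-month knockouts (adjusted p = 0.373) and at 0.15, 0.21, 1.04, 0.08 and 1.13 in 3-month controls (adjusted p = 0.0153). Control 3 of 3 months had the highest Psmb8 and, after control 5, the next highest Psmb9. Tap1, which shares the promoter region of Psmb9 printed above, was at 0.15, 0.27, 0.01, 0.03 and 0.31 in 3-month knockouts and -0.30, -0.23, 0.49, 0.11 and -0.28 in 3-month controls. Control 3 was the highest of these mice for Tap1 as well, while control 5 lay below 0. Psmb10, which takes the place of Psmb7, was at 0.12, -0.03, 0.00, 0.27 and 0.14 in 3-month knockouts and at -0.11, 0.04, 0.45, 0.16 and 0.59 in 3-month controls, called in neither.

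At 5 months Psmb8 was at 0.24, 0.00, 0.05, 0.13 and 0.03 in knockouts and at 0.25, 0.23, -0.04, -0.30 and -0.07 in controls. Psmb9 was at 0.53, 0.24, 0.05, 0.71 and 0.21 in knockouts and at 0.52, 0.13, 0.08, -0.04 and -0.24 in controls. Psmb10 was at 0.05, -0.19, -0.39, 0.38 and -0.13 in knockouts and at -0.23, -0.09, -0.05, -0.44 and -0.35 in controls. The groups overlapped for all 3 genes, and all 5 controls were below 0 for Psmb10 by its first probe. The second Psmb10 probe read 0.37 in 5-month control 1. Medians of 7 MHC class II and dendritic cell markers, which include interferon-controlled genes, ran from -0.08 to 0.70 in 3-month knockouts and 0.12 to 1.26 in 3-month controls. At 5 months they ran from -0.32 to 0.92 in knockouts and -0.30 to 0.33 in controls. Their part in the immunoproteasome values was not tested.

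**Figure D4:**
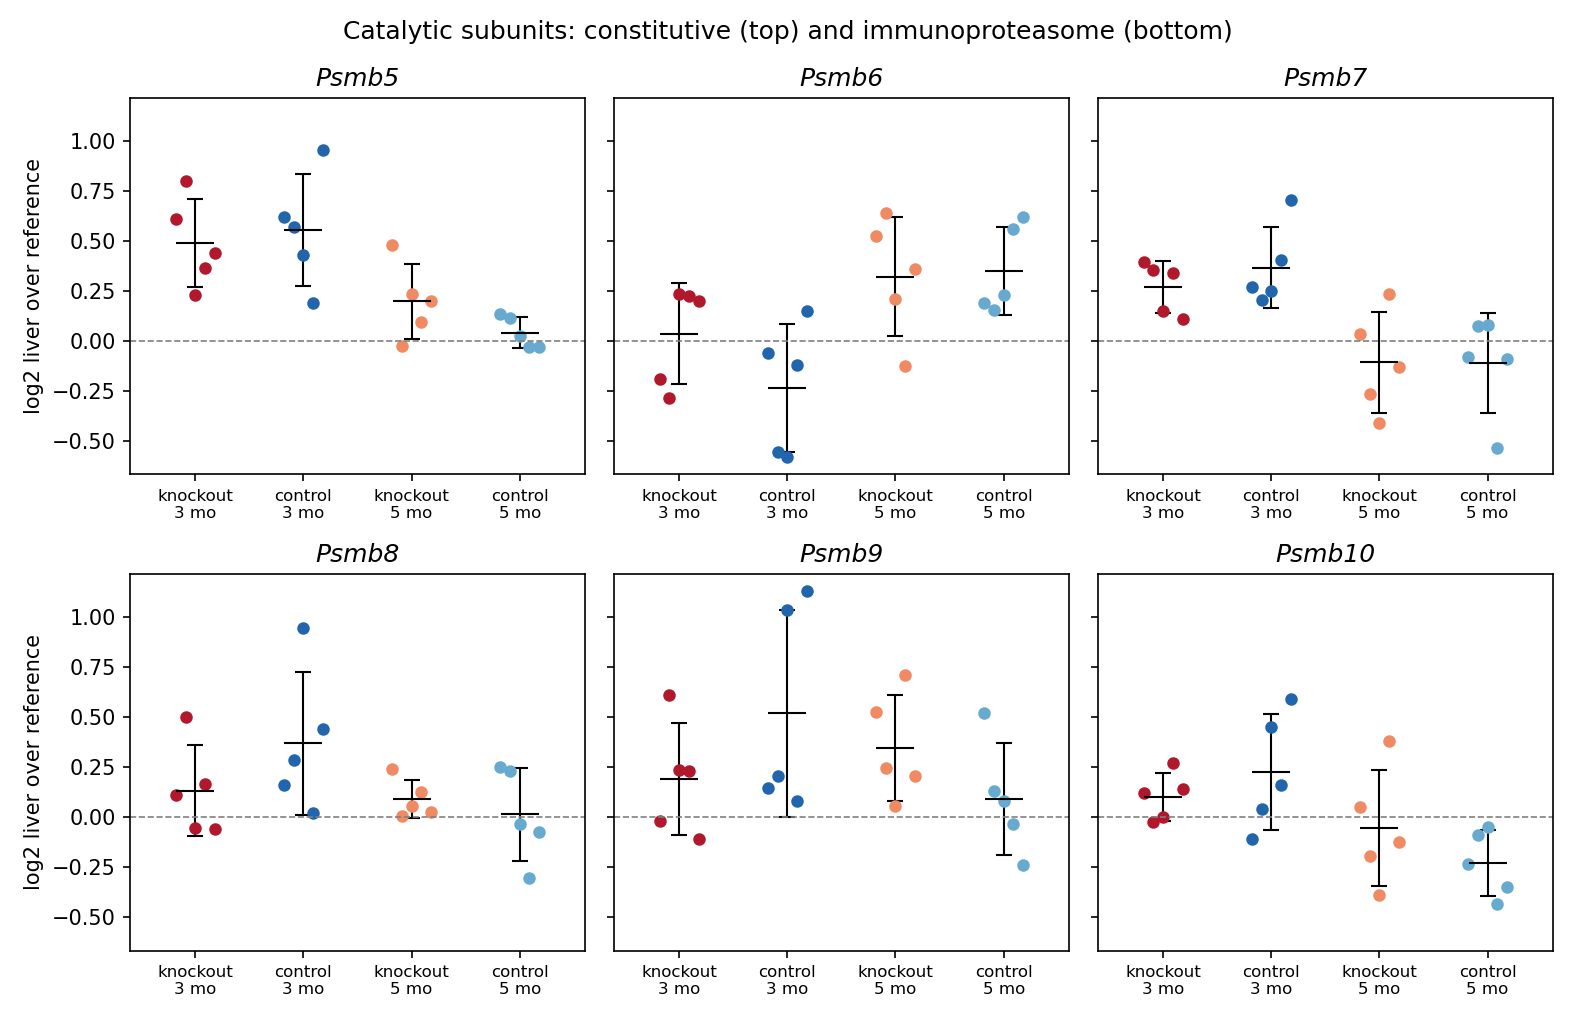
Log2 ratio of liver over reference (y axis) of the 6 cutting subunits, 1 point per mouse, with the mean and SD of 5 mice. The constitutive subunits are in the upper row and their immunoproteasome counterparts below them. The 3-month controls of Psmb8 and Psmb9 range up to 0.95 and 1.13, and the other groups overlap them.

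No proteasome gene was called between knockouts and controls at 3 months. Of 76 proteasome probes 0 were called, while 13 of all 36607 probes were (0.0355%). At an unadjusted p under 0.05, 1 proteasome probe was higher and 0 were lower, against 2.14% and 5.82% of all probes. The 1 probe was that of Psmc3ip, which is no subunit. The gene median of the difference was -0.08, and 30 of 49 genes were below 0. Of the probes, 26 (34.2%) were above 0, against 45.5% of all probes. Core genes had a median of -0.14, with 13 of 15 below 0, and immunoproteasome genes a median of -0.24, with 3 of 3 below 0. The regulatory genes had a median of 0.01, with 9 of 17 above 0, and the median of all probes was -0.02. Of the 76 probes 0 had groups that did not overlap, against 0.385% of all probes with every knockout above and 0.929% with every knockout below. Without 3-month control 5 the core median was -0.07, and without 3-month control 3 the immunoproteasome median was -0.09.

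No single gene passed the test at 3 months. Psma6, an alpha subunit, had the largest core difference, -0.29 ± 0.14 (SE, adjusted p = 0.632), with values of 0.36, 0.18, 0.09, 0.11 and 0.01 in knockouts and 0.43, 0.46, 0.28, 0.08 and 0.96 in controls. The knockouts all lay below the mean of the controls, and the groups overlapped. Without 3-month control 5 the difference was -0.17. Psma8 differed by -0.22 ± 0.12, Psmb4 and Psmb1, beta subunits without a cutting site, by -0.18 ± 0.15 and -0.16 ± 0.17, and Psmb6 by 0.27 ± 0.18, the largest positive core value. Of the cutting subunits, Psmb5 differed by -0.06 ± 0.14, Psmb7 by -0.10 ± 0.15, Psmb8 by -0.24 ± 0.16, Psmb9 by -0.33 ± 0.22 and Psmb10 by -0.13 ± 0.15. In the regulatory particle, the ATPases Psmc1 and Psmc2 differed by 0.22 ± 0.12 and -0.18 ± 0.12, the receptor Psmd4 and the base scaffold Psmd2 by 0.16 ± 0.13 and 0.14 ± 0.13, and the lid subunits Psmd13 and Psmd14 by -0.26 ± 0.17 and -0.21 ± 0.15. The lowest adjusted p among these genes was that of Psma6. Of 27 named genes, 22 had a 3-month difference that moved by over 1.5 times or turned sign when a single mouse was left out, 15 of them when it was control 5.

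Among the activators, Psme3, the nuclear PA28-gamma activator, differed by 0.24 ± 0.15, Psme1 by -0.19 ± 0.12, Psme4 by 0.34 ± 0.26 and Psmf1 by 0.12 ± 0.29. Without 3-month knockout 5 the Psme4 difference was 0.11. The assembly chaperones Psmg2 and Psmg1 differed by -0.22 ± 0.14 and -0.18 ± 0.12, Psmd9 and Psmd10 by -0.16 ± 0.17 and 0.09 ± 0.18, and Psmb11 by -0.08 ± 0.13. Psmc3ip had the largest difference of all members, 0.90 ± 0.25 (adjusted p = 0.237, unadjusted p = 0.00165). Its values were 0.84, 0.34, 0.57, 0.48 and 1.13 in knockouts and -0.40, -0.99, -0.04, -0.18 and 0.47 in controls, and the groups overlapped. Psme3ip1 differed by 0.02 ± 0.12.

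At 5 months most proteasome genes lay higher in knockouts than in controls, but none passed the test. Of 76 probes 0 were called, while 53 of all 36607 probes were (0.145%). At an unadjusted p under 0.05, 12 proteasome probes (15.8%) were higher and 0 lower, against 7.07% and 3.41% of all probes. The difference was above 0 for 65 of 76 probes (85.5%), against 52.3% of all probes. With liver-in-Cy5 arrays alone it was above 0 for 61, and with liver-in-Cy3 arrays alone also for 61. For these 2 settings the share of all probes above 0 was not computed. Without 5-month control 4 the difference was above 0 for 56, against 53.1% of all probes. Without the 2 knockouts that have 1 array it was above 0 for 67, against 51.4% of all probes. The gene median of the difference was 0.17, with 44 of 49 genes above 0, against 0.01 for all probes. It was 0.11 without 5-month control 4.

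Every class had a positive median at 5 months. Core genes had a median difference of 0.23 with 13 of 15 above 0, regulatory genes 0.19 with 16 of 17, immunoproteasome genes 0.18 with 3 of 3, activators 0.11 with 5 of 5 and chaperones 0.05 with 4 of 6. Within the core, alpha subunits had a median of 0.25 and beta subunits without a cutting site 0.30, while the 3 constitutive cutting subunits had 0.004. By their first probes, the 8 lid subunits and the 6 ATPases of the regulatory particle were all above 0, with medians of 0.20 and 0.24. The second probe of the lid subunit Psmd13 differed by -0.09. Part of the gap between groups lay in 5-month control 4, whose core median of -0.54 and regulatory median of -0.33 were the lowest of its group. Regulatory medians were 0.20 to 0.38 in the knockouts, against 0.07 to 0.19 in the other 4 controls, with no overlap. Without 5-month knockout 4 the immunoproteasome median was 0.067. Core medians reached from just below 0 to 0.32 in the knockouts, against -0.10 to 0.03 in the same 4 controls, and these overlapped.

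Of the 76 probes, 9 had every knockout above every control (11.8%, against 2.59% of all probes), and 1 had every knockout below (1.32%, against 1.33%). Without 5-month control 4 these counts were again 9 and 1, against 2.96% and 1.60% of all probes. Without the 2 knockouts that have 1 array they were 14 and 2, against 7.73% and 5.3% of all probes. Psma1 had the largest subunit difference, 0.56 ± 0.16 (a ratio of 1.47, adjusted p = 0.207, unadjusted p = 0.00211). Its second probe differed by 0.39 ± 0.15, and both probes had every knockout above every control. Psma4, an alpha subunit, differed by 0.55 ± 0.17 (adjusted p = 0.273). Its values were 0.30, 0.35, -0.05, 0.45 and 0.14 in knockouts and -0.24, -0.19, 0.05, -0.84 and -0.36 in controls. A single knockout, at -0.05, lay below a single control, at 0.05.

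Psmd14 differed by 0.47 ± 0.15 (adjusted p = 0.292), with 0.28, 0.22, 0.27, 0.62 and 0.26 in knockouts and -0.07, -0.08, 0.14, -0.56 and -0.13 in controls. Every knockout lay above every control. The ATPase Psmc1 differed by 0.35 ± 0.12 (adjusted p = 0.302), with 0.33, 0.23, 0.51, 0.39 and 0.30 in knockouts and 0.11, 0.04, 0.09, -0.33 and 0.07 in controls. Psmc2 differed by 0.30 ± 0.12 (adjusted p = 0.360), with 0.41, 0.25, 0.41, 0.40 and 0.47 in knockouts and 0.18, 0.08, 0.18, -0.16 and 0.14 in controls. Both ATPases separated the groups, and control 4 was the lowest control in both.

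Psme4 differed by 0.54 ± 0.26 (adjusted p = 0.482), with -0.23, 1.02, -0.08, -0.37 and -0.09 in knockouts and -0.58, -0.38, -0.49, -0.48 and -0.50 in controls. Knockout 2, at 1.02, stood far above the others and has a single array. Without it the difference was 0.29. With liver-in-Cy5 arrays alone, which also leave that mouse out, the difference was -0.14. The remaining separating probes were Psme3ip1 (0.38 ± 0.12), the third probe of Psma3 (0.43 ± 0.16) and the second of Psmd6, a lid subunit (0.42 ± 0.15). The first probe of Psma3 differed by -0.13 ± 0.15 and that of Psmd6 by 0.18 ± 0.14, neither separating the groups. The probe with every knockout below every control was the third of the chaperone Psmd9 (-0.21 ± 0.13).

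The other named members did not pass the test at 5 months either. Psmb2 and Psmb4, beta subunits without a cutting site, differed by 0.31 ± 0.14 and 0.31 ± 0.15, and the lid subunit Psmd12 by 0.25 ± 0.13. The base scaffolds Psmd1 and Psmd2 differed by 0.19 ± 0.14 and 0.05 ± 0.13. The cutting subunits gave 0.16 ± 0.14 for Psmb5, -0.03 ± 0.18 for Psmb6, 0.08 ± 0.16 for Psmb8, 0.26 ± 0.22 for Psmb9 and 0.18 ± 0.15 for Psmb10. Psmb7 differed by less than 0.01, with an SE of 0.15, and its second probe by 0.12 ± 0.13. Psme1 and Psme2 differed by 0.06 ± 0.12 and 0.18 ± 0.15, Psmf1 by 0.11 ± 0.29, and Psmb11 by 0.17 ± 0.13. The chaperones Psmd5, Psmd10, Psmg1 and Psmg3 differed by 0.16 ± 0.13, -0.02 ± 0.18, 0.17 ± 0.12 and 0.06 ± 0.13. Psmc3ip differed by 0.53 ± 0.25 (adjusted p = 0.461). Of 27 named genes, 17 had a 5-month difference that moved by over 1.5 times or turned sign when a single mouse was left out, 12 of them when it was control 4.

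**Figure D5:**
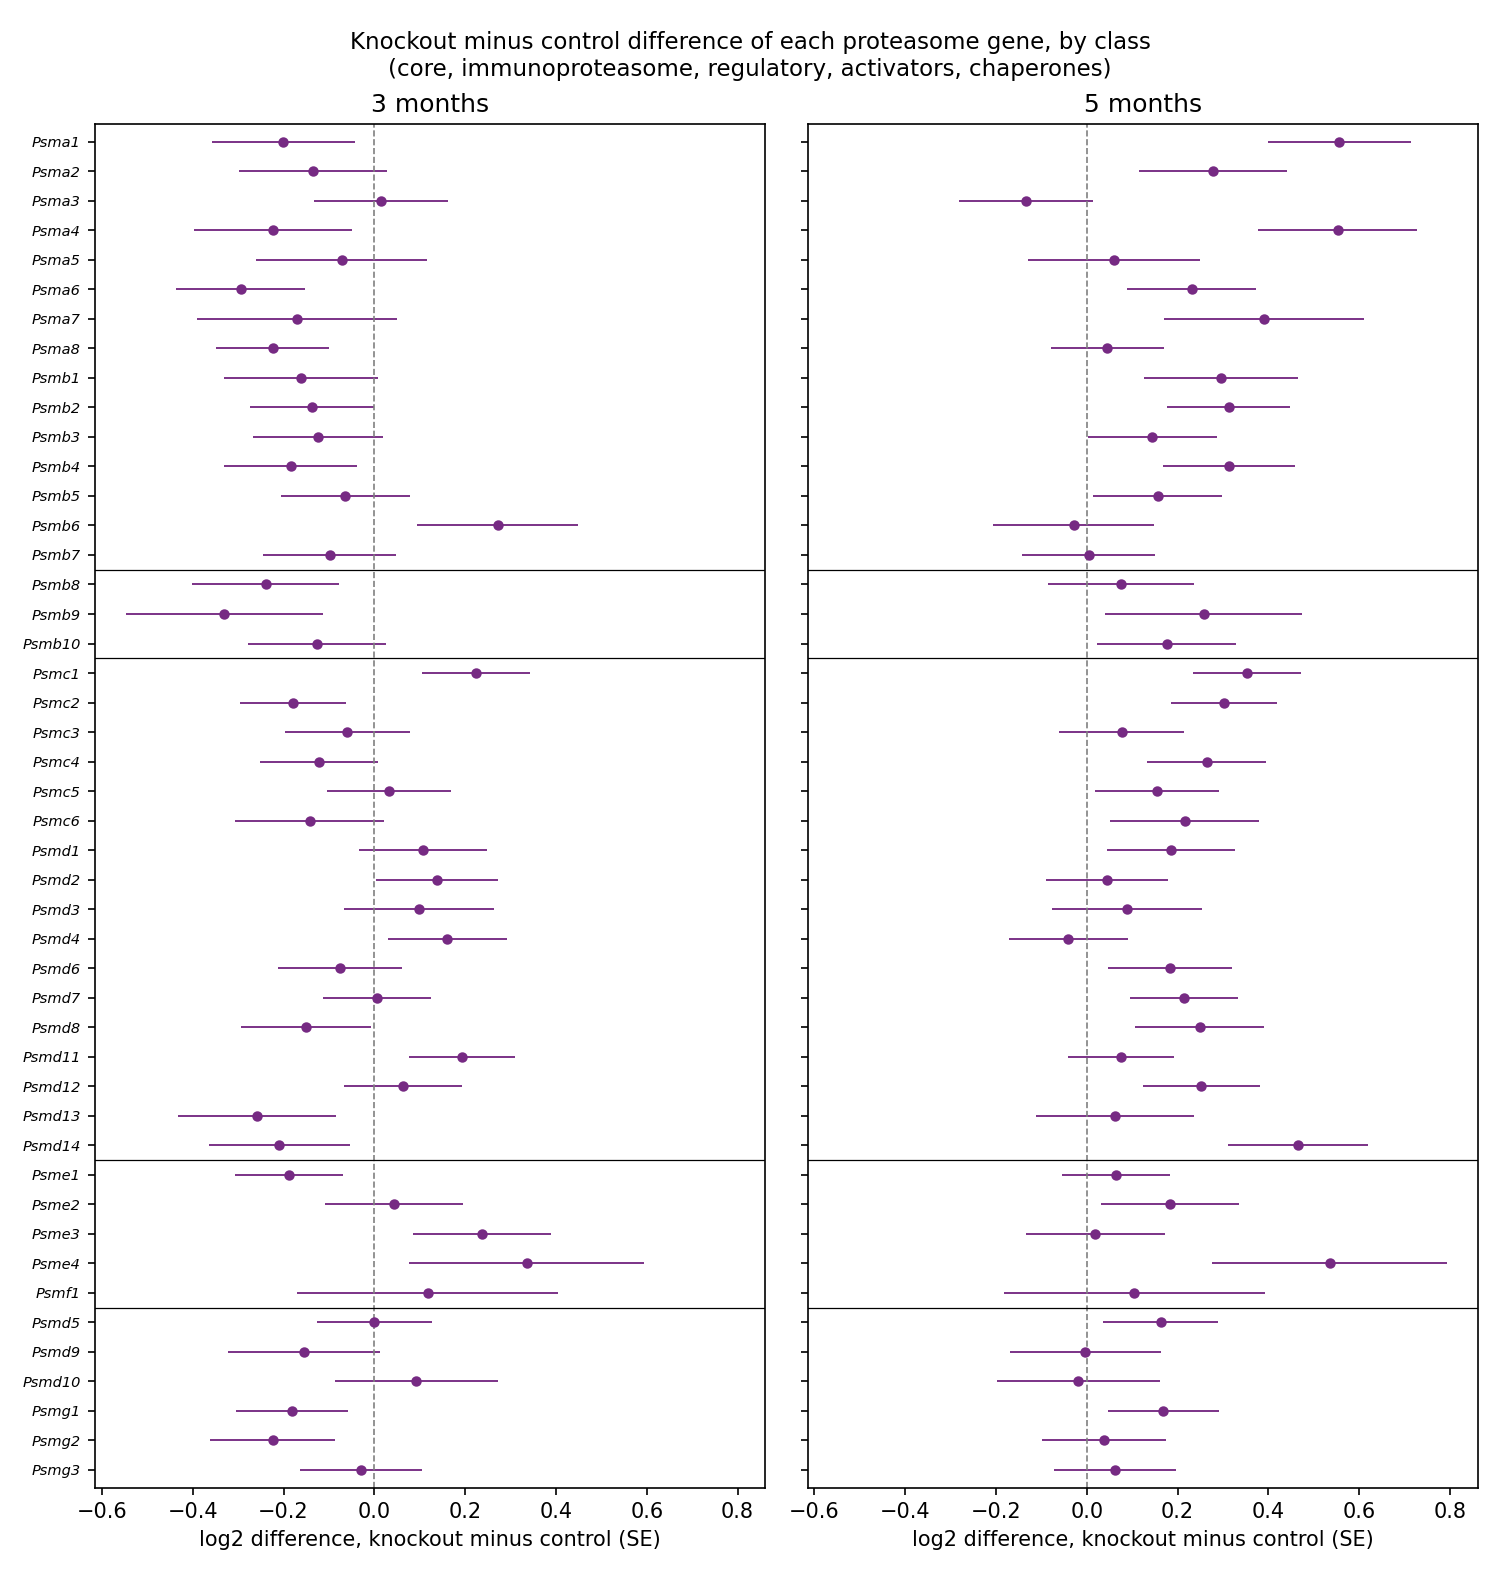
Log2 difference, knockout minus control, with its standard error (x axis) for the first probe of 46 genes at 3 months on the left and 5 months on the right, with lines between the classes named in the title. At 5 months Psma1 and Psma4 lie farthest right among the subunits, at 0.56 and 0.55, and no gene passed the adjusted threshold at either age.

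The change of the genotype difference between ages was tested as an interaction. No probe on the array was called, so 0 of 76 proteasome probes were (0% of all probes). The interaction was above 0 for 59 probes (77.6%), against 57.4% of all probes. At an unadjusted p under 0.05, 10 proteasome probes (13.2%) had a higher difference at 5 months and 0 a lower one, against 5.61% and 2.14% of all probes. The gene median of the interaction was 0.25, against 0.06 for all probes, and it was 0.41 for the core, 0.19 for the regulatory genes and 0.31 for the immunoproteasome. Psma1 and Psma4 had interactions of 0.76 ± 0.22 (adjusted p = 0.452) and 0.78 ± 0.25 (adjusted p = 0.488).

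Values within a run of mAdb IDs differed from the pooled ones at 3 months. There the gene median was 0.04 within 1 run of 5 mice and -0.21 within the other, with 51 and 18 of 76 probes above 0. At 5 months 1 run held knockouts alone, and within the other, of 2 knockouts and 5 controls, 56 of 76 probes were above 0 with a gene median of 0.19. The share of all probes above 0 within a run was not computed, so these counts say nothing particular to the proteasome probes.

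Several cell type marker lists also had positive medians at 5 months. No marker was called between genotypes. The median difference was 0.48 over 10 of 12 Kupffer cell and macrophage markers, with 8 above 0. It was 0.35 over 9 of 9 endothelial markers, with 8 above 0. Over 7 of 7 MHC class II and dendritic markers it was 0.35, with only 4 above 0. Over 10 of 10 hepatocyte markers it was 0.18, with 9 above 0. Medians per mouse of the Kupffer list ran from -0.12 to 0.51 in 5-month knockouts and -0.69 to -0.07 in 5-month controls. Those of the endothelial list ran from 0.03 to 0.24 in knockouts and -0.34 to -0.11 in controls, without overlap. The part of these cells in the proteasome differences was not tested. T and NK cell markers differed by -0.04 in the median over 12 of 13 and neutrophil markers by -0.05 over 5 of 6. Stellate cell and fibroblast markers differed by -0.09 over 8 of 8, with 3 above 0. Cholangiocyte markers differed by 0.20 over 4 of 5 and B cell markers by 0.13 over 5 of 6. At 3 months, where the immunoproteasome genes lay lower in knockouts, medians per mouse of the neutrophil list ran from -0.60 to -0.35 in knockouts and -0.33 to 0.28 in controls, without overlap. Those of the T and NK list averaged -0.18 ± 0.12 in 3-month knockouts and 0.14 ± 0.21 in 3-month controls (SD, n = 5 each). Gene by gene, however, the median 3-month difference of the T and NK list was -0.06, with 5 of 12 markers above 0. It was -0.36 over the neutrophil list, -0.02 over the Kupffer list and -0.04 over the MHC class II and dendritic list. Over 5 of 6 B cell markers it was 0.11. The MHC class II and dendritic list was split, with 3 of 7 markers above 0. In it H2-Aa averaged 0.78 in 3-month knockouts and 1.92 in 3-month controls, and H2-Ab1 averaged 0.46 and 1.44. No marker was called at 3 months, and the part of these cells in the 3-month differences was not tested either.

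Genes that work with the proteasome were compared in the same way. Of 12 measured genes of 17 listed as partners and transcription factors, 0 were called between genotypes at either age, with medians of 0.04 at 3 months and 0.15 at 5 months. Against the reference 6 were higher and 2 lower in 3-month knockouts, where 10.6% and 17.6% of all probes were, and 5 and 2 in 3-month controls, against 12.3% and 17.6%. At 5 months 3 were higher and 2 lower in knockouts, against 17.1% and 12.4%, and 1 and 5 in controls, against 14.7% and 14.5%. Pomp, the maturation factor of the core, differed from the reference by 0.71 ± 0.10 in 3-month knockouts (SE, adjusted p = 1.01e-04), by 0.93 ± 0.10 in 3-month controls (adjusted p = 8.07e-06) and by 0.48 ± 0.10 in 5-month knockouts (adjusted p = 0.00288). Ecpas, a scaffold that binds the assembled particle, was lower in all 4 groups, at -0.94 ± 0.17 in 3-month knockouts, -0.97 ± 0.17 in 3-month controls, -0.68 ± 0.17 in 5-month knockouts and -0.63 ± 0.17 in 5-month controls. Nfe2l1 was lower in all 4 groups as well, at -0.34 ± 0.09 in 3-month knockouts (adjusted p = 0.0128) and -0.39 ± 0.09 in 3-month controls (adjusted p = 0.00424). At 5 months it was at -0.54 ± 0.09 in knockouts (adjusted p = 6.33e-04) and -0.49 ± 0.09 in controls (adjusted p = 0.00125).

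Of 17 measured genes of 25 for ubiquitin supply and delivery, 6 were higher and 2 lower than the reference in 3-month knockouts and 7 and 2 in 3-month controls. At 5 months 2 were higher and 1 lower in knockouts and 4 and 2 in controls. Ubqln1, a shuttle that carries ubiquitin conjugates to the proteasome, was at 0.60 ± 0.10 in 3-month knockouts and 0.42 ± 0.10 in 3-month controls. For class I peptide loading and interferon control, 19 of 22 genes were measured. Against the reference 1 was higher and 3 lower in 3-month knockouts and 3 and 2 in 3-month controls. At 5 months 3 were higher and 3 lower in knockouts and 1 and 5 in controls. As shares of the 17 and 19 genes, these counts stand beside the 10.6% higher and 17.6% lower of all probes in 3-month knockouts and the 12.3% and 17.6% in 3-month controls. At 5 months the shares of all probes were 17.1% and 12.4% for knockouts, against 14.7% and 14.5% for controls. Between genotypes, 0 genes of either list were called, and the medians were -0.05 and -0.07 at 3 months and 0.07 and 0.08 at 5 months. B2m, the light chain of class I, differed by 0.64 ± 0.19 at 5 months (adjusted p = 0.231), and Cxcl9, an interferon gamma induced chemokine, by -0.93 ± 0.24 at 3 months (adjusted p = 0.211).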

How the data were processed

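RNA of 20 mouse livers was measured on 38 2-colour arrays of 36607 probes. The deposited values are log2 ratios of the dyes: the authors scanned the arrays with GenePix, excluded invalid features and scaled each array in mAdb at the 50th percentile of its median signals, per the labels' series design text. Base 2 was inferred from the steps between values, while direction, background handling and spot averaging are not stated there. Ratios were turned to liver over reference with the liver's dye from the labels. For each probe a dye effect was taken from the 18 mice, of both ages, that have both orientations and removed, and a mouse's arrays were averaged. The 5-month knockouts 2 and 3 have 1 array each, so their values depend on the estimated dye effect. The number of arrays limits the precision.

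Group means were fitted over all 20 mice with limma 3.58.1 in R 4.3.3 (lmFit, eBayes), with Benjamini-Hochberg adjustment over all probes and a threshold of 0.05, and the fit was tested on simulated data. The members and gene lists were chosen with earlier results of these data known. Named genes were the 6 cutting subunits, in each comparison those with the largest differences of each class, and those highest and lowest over the reference. Alternatives covered centring, quantile normalization, dye handling, runs of mAdb experiment IDs, the replicate number as a block, single mice left out and the methods' t-test. Alternatives on single orientations with centring, and a dye effect within each age, were chosen after seeing the data.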

Additional observations from a re-analysis of the deposited data

Results flagged for a closer look

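Of 168 groups of 5 mice examined, 19 had a mouse that lay farther from the other 4 than Dixon's 95% critical value allows. Independent groups not chosen from the data would give about 1 in 20, or 8.4. Here most genes were chosen from these same data for large differences or extreme levels, and all share the same mice. The 19 can therefore not be read against 8.4. The 5-month control 4 accounted for 6 of the 19. Its core median was -0.54 and its regulatory median -0.33, while the other 4 controls of its group had core medians between -0.10 and 0.03 and regulatory medians between 0.07 and 0.19. In the same mouse Psmb7 was at -0.54, Psmb4 at -0.65, Psmc1 at -0.33 and Psma5 at -1.11, each the lowest of its group.

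Among the 5-month knockouts, knockout 4 stood high for Psma1, at 0.69, and for Psmd14, at 0.62. Knockout 2, which has 1 array, stood high for Psme4, at 1.02. Knockout 3, which also has 1 array, was high for Psmd5, at 0.56, and Psmc4, at 0.59, and low for Psmf1, at -0.70. Knockout 1 was low for Psma8, at -0.51. In 5-month controls, control 5 was the highest for Psmd10, at -0.58.

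At 3 months knockout 1 was low for Psmf1, at -1.27, and high for Psmd2, at 0.84. The 3-month control 5 was low for Psme3, at -0.27, and high for Psme2, at 0.57, and control 4 was low for Psmb2, at 0.33. The causes of these values were not tested.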

How the results depend on the processing

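Groups of 5 mice, 2 knockouts with 1 array, an unstated ratio direction, runs of mAdb IDs that follow age, and probes of a gene that disagree limit every value here. Ratios carry no signal level, so background could not be examined. No proteasome probe was called between genotypes under any setting except quantile normalization, where 1 was at 5 months (Psma1). Under that setting the 5-month calls over all probes rose as well, as given below. Causes were not tested.

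Counts over all probes between genotypes moved widely. At 3 months (13) they were 1 with quantile normalization, 5 with no dye effect removed, 2 with liver-in-Cy5 and 2 with liver-in-Cy3 arrays alone, centred or not, 1 without the Cy5 array of control 4 of 5 months, 23 without the mice of 1 array, 27 with the ID run as a covariate, 26 with the dye effect estimated within each age, 0 from mice of that age alone, 0 within either run, and 63 by the methods' t-test at an unadjusted 0.001, 0 after adjustment. At 5 months (53) they were 29 with centred arrays, 766 with quantile normalization, 2 with liver-in-Cy5 arrays (0 centred), 0 with liver-in-Cy3 arrays, centred or not, 21 without the mice of 1 array, 0 with the ID run covariate, 4 from that age alone, 2 within a run, and 242 by the methods' t-test, 0 after adjustment. With the replicate number as a block, 0 probes were called at 3 months, 1 at 5 months and 1 for the interaction. The numbers do not pair the mice: same-numbered mice correlated at -0.07 to 0.11 at 3 months and -0.18 to 0.17 at 5 months, and 1 of 5 pairs at each age was best with its own number. Leaving out single mice gave 0 to 26 at 3 months, 10 to 105 at 5 months and 0 to 1 for the interaction.

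Calls against the reference, over all probes, were 6045 (3-month knockouts), 6559 (3-month controls) and 16881 (5-month controls) with quantile normalization, 24237, 24159, 2487 (5-month knockouts) and 2334 (5-month controls) with liver-in-Cy5 arrays, 23259, 21608, 2376 and 2103 when these were centred, 19137 and 21889 at 3 months with liver-in-Cy3 arrays, 17635 and 21101 when centred, 6338 in 5-month controls without the Cy5 array of control 4, and 3152 in 5-month knockouts without the mice of 1 array. Leaving out single mice gave 6923 to 11006 in 3-month knockouts, 7851 to 11458 in 3-month controls, 6435 to 11478 in 5-month knockouts and 5347 to 11779 in 5-month controls.

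Proteasome probes called higher were 62 (3-month knockouts), 12 (5-month knockouts) and 3 (5-month controls) with centred liver-in-Cy5 arrays, 6, 11 (3-month controls) and 5 (5-month knockouts) with centred liver-in-Cy3 arrays, 2 in 5-month controls with centred arrays, and in 5-month knockouts 11 with liver-in-Cy5 arrays and 8 without the mice of 1 array. Beside the 62, 31.1% of all probes were called higher, and beside the 6 and 11, 24.3% and 29.2%. For the other settings, and with single mice left out, the share of all probes called higher or lower was not computed. Those counts therefore say nothing particular to the proteasome probes. Leaving out single mice gave 35 to 43 higher in 3-month knockouts and 43 to 48 in 3-month controls. At 5 months it gave 12 to 23 higher in knockouts and 2 to 9 in controls. In the same order of groups it gave 0 to 3, 0 to 4, 3 to 6 and 7 to 13 lower.

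The proteasome gene median in 3-month knockouts was 0.52 with centring, 0.55 with quantile normalization, 0.23 with liver-in-Cy3 arrays, 0.94 with centred liver-in-Cy5 and -0.046 with centred liver-in-Cy3 arrays. In 3-month controls it was 1.02 and 0.0086 in these last cases. In 5-month knockouts it was 0.11 with centring, 0.25 with liver-in-Cy5 arrays, 0.079 with liver-in-Cy3 arrays, 0.32 and -0.11 with these centred, and 0.11 over all probes of a gene. The genotype difference at 3 months was 0.044 and -0.21 within the runs. Leaving out single mice gave -0.13 to -0.01 at 3 months and 0.11 to 0.21 at 5 months.

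Several gene differences turned sign, none of them called in the genotype comparisons. At 3 months within a run these were Psmb1 (0.17), Psmb11 (0.00033), Psmb4 (0.019), Psmb5 (0.16), Psmb7 (0.13), Psmd13 (0.0058), Psmd14 (0.031), Psme3ip1 (-0.041), Psme4 (-0.19), and in the other Psmd10 (-0.021), Psmd4 (-0.053) and Psmf1 (-0.41, or -0.060 with the covariate). With liver-in-Cy5 arrays they were Psma8 (0.083, centred 0.095), Psmb7 (0.016, 0.028), Psmd10 (-0.044, -0.031) and Psmd9 (0.16, 0.17). Centred liver-in-Cy5 arrays also turned Psma5 (0.34) and Psmb11 (0.34) in 3-month knockouts and Psmd10 (0.25) in 3-month controls over the reference. At 5 months the ID run covariate and the run with both genotypes turned Psmb6 (0.23), Psmb7 (-0.0047) and Psmd1 (-0.059). Liver-in-Cy5 arrays turned Psmb6 (0.21, centred 0.29), Psmd2 (-0.029), Psmd5 (-0.034) and Psme4 (-0.14, -0.063), and liver-in-Cy3 arrays Psmb5 (-0.080, centred -0.14), Psmb7 (-0.034, -0.098), Psmd10 (0.050), Psme1 (-0.15, -0.21) and Psmg3 (-0.038, -0.10). Quantile normalization turned Psmb6 (0.041), Psmd10 (0.12) and Psmd2 (-0.014), and leaving out the Cy5 array of control 4 turned Psmb7 (-0.012) and Psme1 (-0.071). Leaving out single mice turned, with ranges, Psmb5 (-0.16 to 0.037), Psmd10 (-0.034 to 0.20), Psme3ip1 (-0.042 to 0.052) and Psmf1 (-0.092 to 0.34) at 3 months, and Psmb6 (-0.11 to 0.083), Psmb7 (-0.10 to 0.080), Psmb8 (-0.0036 to 0.13), Psmd10 (-0.18 to 0.068), Psmd2 (-0.040 to 0.10) and Psme1 (-0.0071 to 0.12) at 5 months.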

Other observations

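Probes of the same gene did not always run together over the 20 mice. Pearson's r between both probes was 0.94 for Psma1, 0.92 for Psmc5, 0.90 for Psmd6 and 0.90 for Psmc4, but 0.36 for Psmd4, -0.32 for Psmb3 and -0.62 for Psmf1, as a description with no test. For genes with 3 probes, the lowest of the pairwise r was -0.05 for Psma3 and -0.27 for Psmd10. The mice share runs of mAdb IDs and a reference pool, which also enter these correlations. A second probe of Psmd1 read 2.49 in 3-month control 5, far from the first probe of that gene.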
